A study of Mus musculus with 4 samples.

Results

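The BCL2 family was followed here in RNA sequencing of mouse T cells. The members were chosen by a rule that lists 10 gene symbols in 3 classes: the anti-apoptotic Bcl2, Bcl2l1 and Mcl1, the effectors Bax and Bak1, and the BH3-only genes Bcl2l11, Bid, Bad, Bbc3 and Pmaip1. Of these, 9 had a row among the 24768 genes of the table, and Pmaip1 is not analysed here. The 4 libraries came from cDNT cells, which are double-negative T cells and so should carry neither CD4 nor CD8. There were 2 libraries of cells labelled Tbx21-KO and 2 of wild-type (WT) cells. The design text calls the first group a knockdown. The labels give no strain, age, treatment or culture time, and they do not say how Tbx21 was disrupted, what the c in cDNT stands for or whether the 2 libraries of a group came from separate animals or cultures.

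The BCL2 family sets the threshold for death through the mitochondrial pathway. BAX and BAK, the effectors, form pores in the outer mitochondrial membrane that release cytochrome c. Anti-apoptotic members hold the effectors in check, and BH3-only proteins bind the anti-apoptotic members or activate the effectors directly. In T cells, BIM, the product of Bcl2l11, is known for removing activated cells when cytokine runs short and for deleting self-reactive thymocytes, while BCL2 and MCL1 keep resting and activated T cells alive. Tbx21 encodes T-bet, a transcription factor of type 1 lymphocyte responses.

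Tbx21 was at 2.29 and 2.41 FPKM in Tbx21-KO 1 and 2, against 13.2 and 11.7 FPKM in WT 1 and 2 (FPKM is fragments per kilobase of gene, scaled to the depth of the library). The Tbx21-KO mean was 18.8% of the WT mean, a log2 difference of -2.01 on FPKM + 1 (SE 0.08, limma adjusted p = 8.21e-05). The reads implied by the FPKM values came to 23341605 and 24031877 for the Tbx21-KO libraries and to 24965863 and 24128456 for the WT libraries. Thy1, the most abundant T cell marker, was at 510.6 and 513.2 FPKM in Tbx21-KO and at 617.8 and 629.0 FPKM in WT, and Cd3e was at 40.2 and 39.8 FPKM in Tbx21-KO and at 57.2 and 56.1 FPKM in WT. Cd4 stayed between 1.74 and 2.02 FPKM in all 4 libraries, and Cd8b1 between 1.94 and 2.95 FPKM. The Tbx21-KO libraries also held much RNA of granulocyte type. The 11 granulocyte and mast cell markers, all called higher in Tbx21-KO, summed to 10517 and 10822 FPKM there and to 8.66 and 10.9 FPKM in WT, where 5 of them reached a mean of 1 FPKM and the granulocyte growth factor receptor Csf3r was at 0 and 0.0115 FPKM. Their most abundant gene, S100a9, was at 3856 and 4068 FPKM in Tbx21-KO and at 2.38 and 2.30 FPKM in WT. Of macrophage and monocyte markers 6 of 6 tested were called higher. They summed to 444.5 and 474.7 FPKM in Tbx21-KO and to 179.4 and 180.3 FPKM in WT. Most of the WT sum was Ly6c2, at 163.9 and 161.9 FPKM in WT and 182.9 and 192.0 FPKM in Tbx21-KO. Its log2 fold change was 0.20, a call lost after median-of-ratios scaling. Lyz2 was at 197.8 and 216.2 FPKM in Tbx21-KO and at 2.68 and 3.84 FPKM in WT. The dendritic cell markers summed to 106.3 and 111.9 FPKM in Tbx21-KO and 34.4 and 37.3 FPKM in WT. Of these, 4 of 6 tested were called higher: Batf3, H2-Aa, H2-Eb1 and Cd74. Itgax and Xcr1 were not called, at log2 fold changes of -0.22 and -0.29. Flt3 and Zbtb46 were at 0.297 FPKM or less in every library and were not tested. Of B cell markers 2 were called higher, and the list summed to 75.8 and 72.0 FPKM in Tbx21-KO and 39.1 and 41.2 FPKM in WT. The T cell receptor list had 17 measured genes, among them Lcp2, Cd5, Cd6, Cd28, Thy1 and Ptprc, which are not receptor chains. Of the 17, 12 were called lower, 1 (Cd5) higher and 4 were not called, with log2 fold changes between -1.41 and 0.53. They summed to 1518 and 1550 FPKM in Tbx21-KO and to 2127 and 2233 FPKM in WT. The part of these other cells in the values of BCL2 family genes was not tested, and in such bulk samples fewer cells of a type and less RNA per cell cannot be told apart.

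In Tbx21-KO cDNT cells Bcl2l11 was the member that changed most, falling to 37.1% of its WT mean. The changes of the other 8 members were smaller, with means between 73.3% and 126.3% of WT. Of the 9 members, 6 were called lower, 1 higher and 2 were not called (limma on log2(FPKM + 1), Benjamini-Hochberg adjusted p under 0.05). Over all 11013 genes with a mean of at least 1 FPKM, 53.1% were called, 23.0% lower and 30.1% higher. All 9 members also had a mean above 5 FPKM. Of the 7032 genes with a mean of at least 5 FPKM, 2171 were called lower and 2018 higher, with a median log2 fold change of -0.02. The groups did not overlap for 8 of the 9 members, against 79.0% of all genes tested. The median log2 fold change (Tbx21-KO minus WT) of the members was -0.25, and that of all genes 0.04. When the T cell receptor list was used to rescale the libraries, Bcl2l11 stayed lower and Bax higher. The lower calls of the other members were lost or turned into higher ones. Under that scaling 72.6% of all genes tested were called higher and 4.75% lower. Of the 17 scaling genes themselves, 6 were still called lower and 7 higher. Replicates of a group lay close together: the largest SD of a member was 8.49% of its mean.

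**Figure D1:**
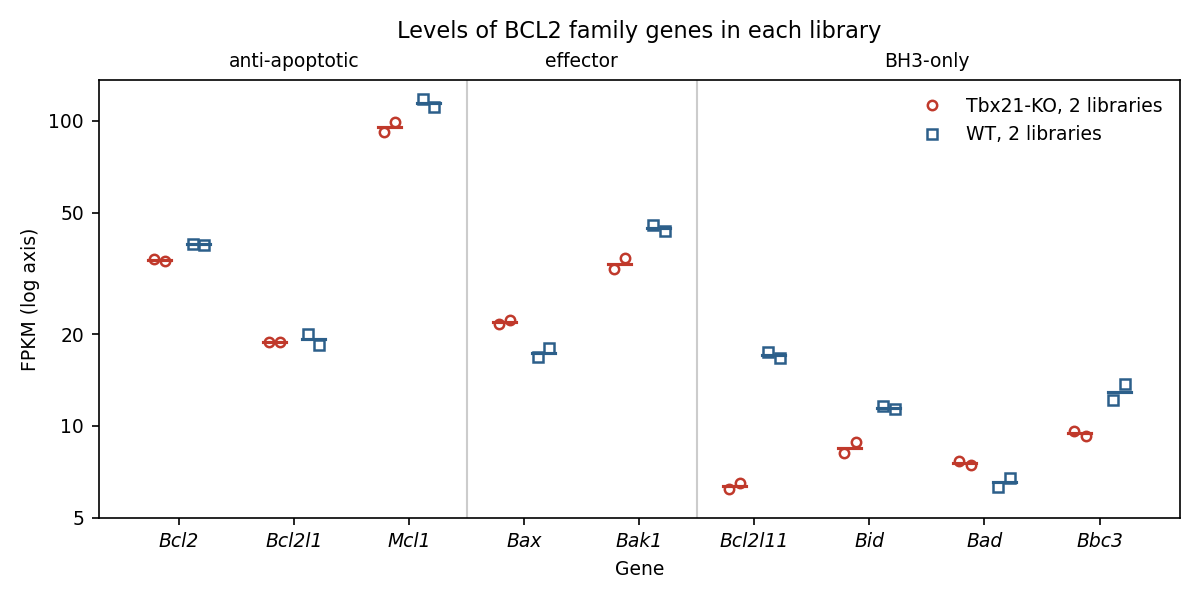
FPKM of the 9 measured BCL2 family genes (log axis) by class; circles are the 2 Tbx21-KO libraries, squares the 2 WT libraries and short lines the group means. Bcl2l11 shows the widest gap, with 6.20 and 6.50 FPKM in Tbx21-KO below 17.5 and 16.8 FPKM in WT, while the Bcl2l1 values overlap.

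The BH3-only class had 4 measured members, of which 3 were called lower and none higher, with a median log2 fold change of -0.40. Bcl2l11 (ENSMUSG00000027381, GRCm38 chromosome 2, 128126038 to 128162547, plus strand, protein-coding) had 6.20 and 6.50 FPKM in Tbx21-KO 1 and 2, against 17.5 and 16.8 FPKM in WT 1 and 2. These correspond to about 1162 and 1254 reads in Tbx21-KO and 3500 and 3249 reads in WT. The Tbx21-KO libraries were both far below the WT libraries, and the gap was many times the spread within a group. The mean was 6.35 ± 0.21 FPKM in Tbx21-KO and 17.1 ± 0.49 FPKM in WT (SD, n = 2 each). Bcl2l11 fell by 1.30 on the log2 scale (SE 0.05, limma adjusted p = 8.79e-05). A log2 fold change this low or lower was seen in 0.935% of the genes tested. Bcl2l11 was the single member among the genes called lower by at least 1 on the log2 scale, which were 205 genes or 1.86% of those tested, and none was among those called higher by at least 1 (7.89%). It was called lower in each of 15 alternative fits, with log2 fold changes between -1.43 and -0.88.

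The promoter of Bcl2l11 is shown because this gene carries the largest change of the family. It is the RefSeq sequence of the 250 bases before the first start site, GRCm38.p6 chr2:128125788-128126037, plus strand, written 5′ to 3′. Of 2 RefSeq start sites of Bcl2l11 it precedes the one at which the annotated gene begins, and no annotated exon lies in it. Capitals mark GTAAACA, the forkhead site bound by FOXO factors, and ATTGG, which is CCAAT on the other strand:
Bcl2l11: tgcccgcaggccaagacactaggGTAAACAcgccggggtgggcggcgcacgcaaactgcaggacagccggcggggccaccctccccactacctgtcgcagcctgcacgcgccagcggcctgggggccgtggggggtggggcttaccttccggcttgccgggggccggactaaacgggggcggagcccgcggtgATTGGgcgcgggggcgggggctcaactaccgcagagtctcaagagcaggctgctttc
The forkhead letters begin 227 bases and the reversed CCAAT box 57 bases before the start. On either strand, GTAAACA occurred in 3.17% and CCAAT in 33.8% of 32851 promoter windows of the same length. The T-box core GGTGTGA, found in 3.33% of windows, and the E-box CACGTG, found in 6.02%, were not in this window. The motifs were chosen with the sequences in view, they do not overlap each other here, and a match of letters is not shown to be a bound site.

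Bid, which links death receptors to the mitochondrial pathway once caspase-8 cleaves its protein, was at 8.13 and 8.84 FPKM in Tbx21-KO and at 11.6 and 11.3 FPKM in WT. The groups did not overlap, and Bid fell by 0.39 on the log2 scale (SE 0.06, limma adjusted p = 0.00453). Bbc3, which encodes PUMA, a BH3-only protein induced by p53, was at 9.66 and 9.31 FPKM in Tbx21-KO, against 12.2 and 13.7 FPKM in WT. It fell by 0.41 (SE 0.07, limma adjusted p = 0.00763), a call lost without Tbx21-KO replicate 2 (adjusted p = 0.0525). Rescaled to the T cell receptor list, Bid and Bbc3 were at 0.02 and 0.01 and not called. Bad, whose protein is held inactive by phosphorylation under growth factor signals, was at 7.71 and 7.44 FPKM in Tbx21-KO and at 6.31 and 6.77 FPKM in WT. Both Tbx21-KO values lay above both WT values, but the log2 fold change of 0.19 (SE 0.06) just missed the threshold (limma adjusted p = 0.0504). Of the exon length of Bid, 17.7% overlaps the antisense family member Bcl2l13, and of that of Bad, 20.5% overlaps Gpr137. No source used here says whether reads were counted by strand, so reads of such overlapping genes cannot be told apart.

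The effectors moved in opposite directions. Bax (ENSMUSG00000003873, GRCm38 chromosome 7, 45461697 to 45466898, minus strand) was at 21.7 and 22.2 FPKM in Tbx21-KO and at 16.8 and 17.96 FPKM in WT. The groups did not overlap, and Bax rose by 0.32 on the log2 scale (SE 0.05, limma adjusted p = 0.00573), to 126.3% of its WT mean. It was called higher in each of 15 alternative fits, with log2 fold changes between 0.21 and 0.76. Bak1 (ENSMUSG00000057789, GRCm38 chromosome 17, 27019810 to 27029009, minus strand) was at 32.7 and 35.4 FPKM in Tbx21-KO, against 45.7 and 43.7 FPKM in WT. It fell to 76.2% of its WT mean, by 0.38 on the log2 scale (SE 0.05, limma adjusted p = 0.00421), but was at 0.07 and not called with the T cell receptor scaling. The ratio of Bax to Bak1 within a library, which a single factor per library does not change, was 0.662 and 0.628 in Tbx21-KO and 0.368 and 0.411 in WT. Bak1 thus had the higher level per length in all 4 libraries, with a narrower gap in Tbx21-KO. An overlapping annotated gene covers 12.2% of the exon length of Bax (Gm45808, same strand). For Bak1, separate entries of Ggnbp1 on the opposite strand cover 7.4% and 18.2%, and their joint cover was not computed.

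The promoter of Bax, the member that rose, is shown for the E-box at its start site, and Bbc3, which was called lower, also has that E-box in a promoter window, 64 to 59 bases before a start. It is the 250 bases before the RefSeq start, GRCm38.p6 chr7:45466899-45467148, minus strand, written 5′ to 3′ with CACGTG in capitals, and no annotated exon lies in it:
Bax: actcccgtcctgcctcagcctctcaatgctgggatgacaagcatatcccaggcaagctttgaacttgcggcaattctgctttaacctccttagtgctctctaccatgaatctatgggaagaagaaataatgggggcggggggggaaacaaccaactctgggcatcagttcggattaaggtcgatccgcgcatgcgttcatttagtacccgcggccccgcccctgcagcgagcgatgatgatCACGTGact
The E-box covers bases 9 to 4 before the start, and its letters read the same on both strands. None of the other searched motifs, the T-box core, the forkhead site and the CCAAT box, was in this window, and neither effector is shown here to be bound by any factor. Among the windows of the other members, the forkhead site was also in 1 of Bbc3 and the T-box core in 1 of Bcl2l1, which was not called.

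Of the anti-apoptotic class 2 members were called lower, by small amounts, and 1 was not called, with a median log2 fold change of -0.17. Mcl1 (GRCm38 chromosome 3, 95658788 to 95663176), whose short-lived protein T cells need throughout life, was the most abundant member per length in every library. It was at 92.0 and 99.4 FPKM in Tbx21-KO 1 and 2, against 117.6 and 110.7 FPKM in WT 1 and 2. The groups did not overlap, and Mcl1 fell by 0.25 on the log2 scale (SE 0.06, limma adjusted p = 0.0184), a call lost without Tbx21-KO replicate 1 (adjusted p = 0.0931) and when genes below 1 FPKM were also tested (adjusted p = 0.060). Bcl2 (GRCm38 chromosome 1, 106538178 to 106714274), the founding survival factor of the family, was at 35.3 and 34.7 FPKM in Tbx21-KO and at 39.6 and 39.2 FPKM in WT. It fell by 0.17 (SE 0.04, limma adjusted p = 0.0176), and the call was lost without WT replicate 1, without Tbx21-KO replicate 1 and without Tbx21-KO replicate 2, with adjusted p = 0.0544, 0.072 and 0.0926. Bcl2l1, which encodes BCL-XL, was at 18.9 and 18.8 FPKM in Tbx21-KO, against 20.1 and 18.4 FPKM in WT. Its groups overlapped and it was not called (log2 fold change -0.03, SE 0.05, limma adjusted p = 0.697). With the T cell receptor scaling all 3 were called higher, at 0.20 for Mcl1, 0.28 for Bcl2 and 0.41 for Bcl2l1, so the direction of these genes depends on the scaling.

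How the libraries are scaled decides most of these small changes. The T cell receptor scaling divided the Tbx21-KO libraries by 0.850 and 0.854 and the WT libraries by 1.15 and 1.19, after which the median log2 fold change of all genes was 0.43, against 0.04 with the deposited values. Under it 72.6% of all genes tested were called higher and 4.75% lower, and 93.9% of the calls were higher, against 56.7% with the deposited values. After quantile normalization the median was -0.09, with 22.3% of all genes called higher and 34.0% lower, so that 39.6% of the calls were higher, and after median-of-ratios scaling it was -0.06, with 43.0% of the calls higher. Under the last 2 scalings the same 7 members were called in the same directions as with the deposited values. With the T cell receptor scaling, Bcl2l11 was still called lower, at -0.88 (limma adjusted p = 0.000155), and Bax and Bad were called higher, at 0.76 and 0.59. The scaling genes themselves then ranged from -0.97 for Cd28 to 0.91 for Cd5, so these 3 members lay within their range.

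**Figure D2:**
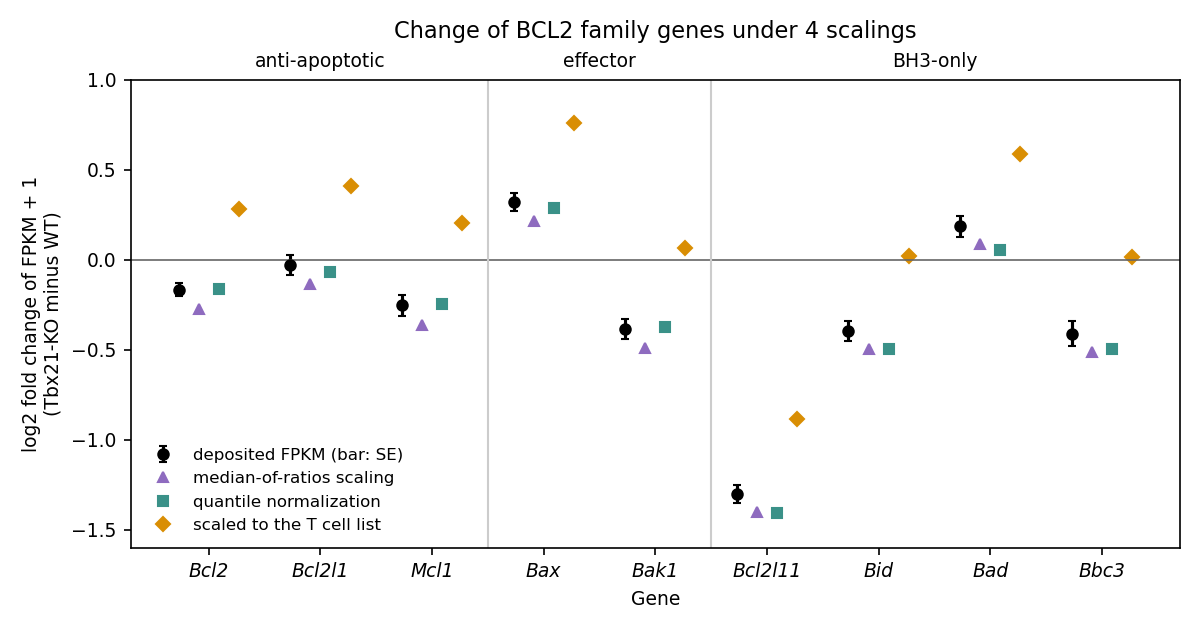
Log2 fold change (Tbx21-KO minus WT, on FPKM + 1) of the 9 members under 4 scalings of the libraries; bars on the deposited values are the SE. Bcl2l11 lies between -1.40 and -0.88 and Bax between 0.21 and 0.76 under all 4. Bcl2, Bcl2l1, Mcl1, Bak1, Bid and Bbc3 cross 0 when the libraries are scaled to the T cell receptor list.

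Ratios of FPKM between members within a library do not change with a single factor per library, as the T cell receptor and median-of-ratios scalings use, though quantile normalization can move them. Those with Bcl2l11 in the denominator differed most. They share that denominator, so they largely restate the fall of Bcl2l11. Per length, there were 5.69 and 5.34 Bcl2 transcripts for each Bcl2l11 transcript in Tbx21-KO 1 and 2, against 2.27 and 2.34 in WT 1 and 2. For Mcl1 over Bcl2l11 the ratio was 14.8 and 15.3 in Tbx21-KO and 6.74 and 6.60 in WT. For Bcl2l1 over Bcl2l11 it was 3.05 and 2.89 in Tbx21-KO and 1.15 and 1.10 in WT. On the log2 scale these 3 ratios were higher in Tbx21-KO by 1.26, 1.18 and 1.40, with pooled SDs of 0.05, 0.03 and 0.05. Set against Bax, the ratios went the other way: Bcl2 over Bax was 1.63 and 1.56 in Tbx21-KO and 2.36 and 2.18 in WT, and Bcl2l1 over Bax was 0.872 and 0.846 in Tbx21-KO and 1.19 and 1.03 in WT. Mcl1 over Bak1 differed by 0.14 on the log2 scale, at 2.81 in each Tbx21-KO library and 2.57 and 2.53 in WT.

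Summed over a class, anti-apoptotic over BH3-only FPKM was 4.61 and 4.77 in Tbx21-KO and 3.73 and 3.46 in WT. The class sums hold only the measured members of the rule, so Pmaip1 is missing from them. Genes outside the rule were also left out, such as the BH3-only Bik and the anti-apoptotic Bcl2a1d and Bcl2l2, all called higher in Tbx21-KO. The ratios were not recomputed with them. Anti-apoptotic over effector FPKM was nearly level, at 2.69 and 2.65 in Tbx21-KO and 2.84 and 2.73 in WT. BH3-only over effector FPKM was 0.583 and 0.557 in Tbx21-KO, against 0.760 and 0.788 in WT. Of 14 ratios compared, the 2 Tbx21-KO values lay above the 2 WT values in 7 and below them in 6, and those of Bcl2 over Mcl1 overlapped. The two-sided exact permutation p of each ratio whose groups did not overlap was 0.33, the smallest that 2 libraries against 2 allow (0.36 after Benjamini-Hochberg adjustment over the 14), so these ratios are descriptions of the 4 libraries.

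**Figure D3:**
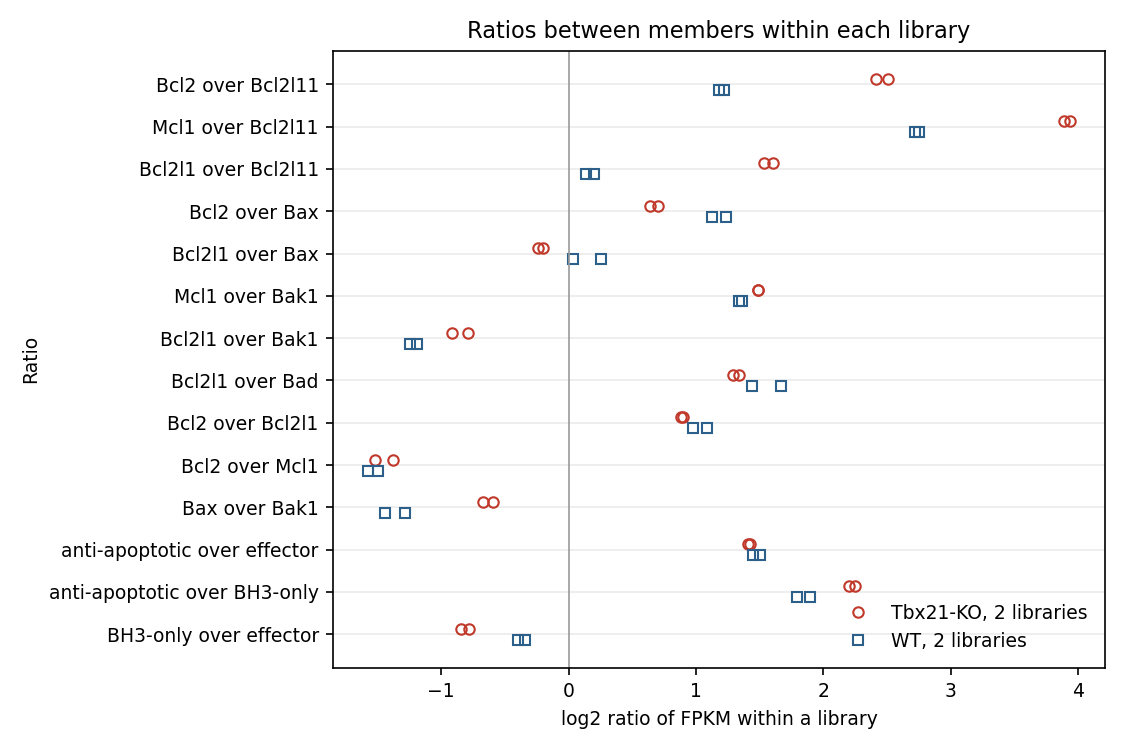
Log2 ratio of FPKM for 14 pairs of members or summed classes in each library; circles are the 2 Tbx21-KO libraries and squares the 2 WT libraries. The 3 ratios over Bcl2l11 are shifted by 1.18 to 1.40 in Tbx21-KO, and Bcl2 over Mcl1 overlaps between the groups.

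The make-up of the family's transcripts restates the same FPKM values as shares, so it is not a separate test. The 9 genes summed to 232.2 and 242.7 FPKM in Tbx21-KO and to 287.3 and 278.6 FPKM in WT. Bcl2l11 made up 2.67% and 2.68% of this sum in Tbx21-KO and 6.08% and 6.02% in WT. Bax made up 9.33% and 9.16% in Tbx21-KO, against 5.85% and 6.45% in WT. Mcl1 held 39.6% and 41.0% in Tbx21-KO and 41.0% and 39.7% in WT, so its share overlapped between the groups. The measured BH3-only members together held 13.7% and 13.2% in Tbx21-KO and 16.5% and 17.4% in WT.

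**Figure D4:**
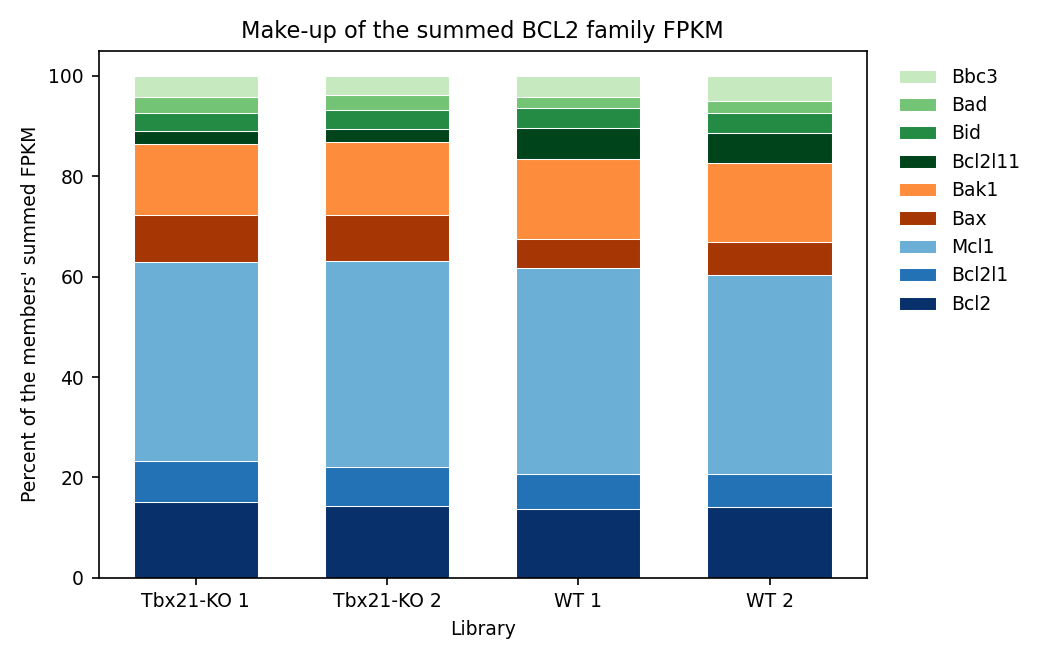
Share of each member in the summed FPKM of the 9 genes, as stacked percentages in each library. The Bcl2l11 share is 2.67% and 2.68% in the Tbx21-KO bars and 6.08% and 6.02% in the WT bars, and the Bax share is wider in the Tbx21-KO bars.

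Family members outside the 10 were looked at from 2 further lists. Of the other anti-apoptotic genes, Bcl2a1d and Bcl2l2 passed the filter and both rose. Bcl2a1d, a copy of the A1 survival gene of activated lymphocytes and granulocytes, was at 22.7 and 27.0 FPKM in Tbx21-KO and at 15.9 and 14.6 FPKM in WT (log2 fold change 0.67, SE 0.10, limma adjusted p = 0.00431). It is nearly identical to Bcl2a1b, which was at 0.315 and 0.255 FPKM in Tbx21-KO and 0.147 and 0.355 FPKM in WT, so reads may be split between the copies and these values are uncertain. Bcl2l2, which encodes BCL-W, was at 7.69 and 7.03 FPKM in Tbx21-KO and at 3.53 and 4.37 FPKM in WT (log2 fold change 0.76). Bcl2l10 was at 0.0702 FPKM or less in every library. These higher values stood in the libraries whose granulocyte markers summed to 10517 and 10822 FPKM, and whether those cells gave the reads was not tested.

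Among 6 tested genes of the other pro-apoptotic or less well defined members, 2 rose, 1 fell and 3 were not called. Bik, a BH3-only gene, was at 5.22 and 5.65 FPKM in Tbx21-KO and at 1.19 and 1.36 FPKM in WT, which made it 4.26-fold higher (SE of the log2 fold change 0.08, limma adjusted p = 0.000237). Its groups were far apart, and per length its level came close to that of Bcl2l11 in Tbx21-KO. Bcl2l12 rose by 0.40, a call lost after quantile normalization and without Tbx21-KO replicate 2. Bnip2 fell by 0.23, a call that 7 alternatives did not keep and that the T cell receptor scaling turned to a call of 0.21. The hypoxia-induced Bnip3 and its relative Bnip3l, which act in the removal of mitochondria, passed no threshold, their log2 fold changes being 0.05 and -0.01. Bcl2l13 was not called either, at 0.06. Bmf stood between 0.868 and 1.01 FPKM in all 4 libraries and was not tested. Bok was at 0.113 FPKM or less, Hrk at 0.0146 or less, Bcl2l14 at 0.468 or less and Bcl2l15 at 0.537 or less.

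The rest of the pathway was read from 8 further lists. With the 2 family lists above, these hold 94 measured genes beside Tbx21, of which 84 were tested: 28 were called higher, 28 lower and 28 not called. That is 66.7% called, against 53.1% of all genes tested, with a median log2 fold change of 0.00. With the T cell receptor scaling 64 of the 84 were called higher and 8 lower, against 72.6% and 4.75% of all genes tested.

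Downstream of the mitochondria, of 10 genes of the apoptosome, the caspases and the released factors, 5 rose, 3 fell and 2 were not called. Htra2, a mitochondrial protease that is released with cytochrome c, was at 16.7 and 14.9 FPKM in Tbx21-KO and at 6.49 and 7.32 FPKM in WT, a rise of 1.09 on the log2 scale (SE 0.08, limma adjusted p = 0.000587). Casp6, a caspase that cleaves lamins, was at 4.73 and 4.83 FPKM in Tbx21-KO, against 2.47 and 2.55 FPKM in WT, a rise of 0.72 (SE 0.06, limma adjusted p = 0.000952). Neither gene's groups overlapped, as for 79.0% of all genes tested, and both were named for being called with large changes. Neither lost its call in any of the 15 alternatives, where tested.

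Of 6 measured genes of the list of the IAP family and caspase inhibition, 2 rose, 1 fell and 3 were not called. Birc2, which encodes cIAP1, rose by 0.61 and Naip5, an inflammasome sensor with near-identical copies, by 0.66. Birc5, the mitotic survivin gene, fell by 0.45, a call lost with the T cell receptor scaling. Xiap, the direct caspase inhibitor, was at 8.77 and 9.33 FPKM in Tbx21-KO and at 9.71 and 8.37 FPKM in WT and was not called (log2 fold change 0.00, limma adjusted p = 0.974). Of 5 partners of BAX and BAK in the outer membrane, only the channel gene Vdac3 was called, at -0.23, and the T cell receptor scaling turned it to 0.21.

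The death receptor arm, which reaches the mitochondria through BID, had 4 genes higher, 4 lower and 2 not called out of 10. Fas, the receptor of FasL, was at 8.23 and 8.73 FPKM in Tbx21-KO and at 2.98 and 2.81 FPKM in WT, a rise of 1.28 (SE 0.06, limma adjusted p = 0.000170). Tnfrsf1a, a TNF receptor also common on myeloid cells, rose by 1.14. The ligand genes Fasl and Tnfsf10, which encodes TRAIL, fell by 1.01 and 0.78. These 4 kept their calls in all 15 alternatives. Cflar, which encodes the caspase-8 inhibitor cFLIP, was not called, with 9.61 and 8.70 FPKM in Tbx21-KO and 9.13 and 9.09 FPKM in WT.

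Upstream regulators were mixed as well. Among 13 tested transcription factors, Tbx21 among them, 4 rose, 6 fell and 3 were not called. The forkhead genes Foxo1 and Foxo3, whose proteins are known activators of Bcl2l11, went opposite ways. Foxo1 was at 8.05 and 7.63 FPKM in Tbx21-KO and at 16.2 and 15.3 FPKM in WT (log2 fold change -0.93, SE 0.06, limma adjusted p = 0.000297). Foxo3 was at 11.7 and 11.1 FPKM in Tbx21-KO, against 7.75 and 7.21 FPKM in WT (0.55, SE 0.06, limma adjusted p = 0.00171). Stat5b, which relays interleukin-2 and interleukin-7 signals, rose by 0.65. Atf4, a factor of the stress response, fell by 0.40, a call lost with the T cell receptor scaling, where it was at 0.05. Trp53, which encodes p53, was not called (36.8 and 37.7 FPKM in Tbx21-KO, 39.7 and 39.1 FPKM in WT, log2 fold change -0.08), though it was called lower with median-of-ratios scaling and higher, at 0.37, with the T cell receptor scaling.

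Of 9 tested p53 target genes, 4 rose, 1 fell and 4 were not called. Phlda3, an inhibitor of AKT, Zmat3, an RNA-binding protein gene, and Cdkn1a, which encodes the cell cycle inhibitor p21, rose by 1.41, 0.73 and 0.51, and Sesn2, also a target of ATF4, fell by 0.96. These 4 kept their calls in all 15 alternatives, in the same libraries in which the p53 target Bbc3 was lower and Bax, another p53 target, was higher. Of 11 tested regulators of MCL1 and BIM protein stability, 1 rose, 5 fell and 5 were not called. Mapk3, which encodes the kinase ERK1 that marks BIM for degradation, rose by 0.52. Fbxw7, a ubiquitin ligase component for MCL1, Gsk3b, a kinase that marks MCL1, and Dynll2, a dynein light chain that binds BMF, fell by 0.54, 0.42 and 0.52. All 3 falls lost their calls with the T cell receptor scaling, where Gsk3b was at 0.01.

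Survival receptors and kinases held the largest changes of the pathway. Of 13 genes tested, 4 rose, 7 fell and 2 were not called. Il7r, the interleukin-7 receptor chain that sustains resting T cells in part through BCL2, was at 45.0 and 42.5 FPKM in Tbx21-KO and at 5.52 and 5.70 FPKM in WT. On the log2 scale Il7r rose by 2.76 (SE 0.05, limma adjusted p = 1.34e-05). Il2ra, the high-affinity chain of the interleukin-2 receptor, rose by 0.87. Pim2, a survival kinase induced by cytokines that phosphorylates BAD, was at 23.8 and 22.6 FPKM in Tbx21-KO, against 108.5 and 109.4 FPKM in WT, a fall of 2.18 (SE 0.04, limma adjusted p = 1.39e-05). Il21r, the interleukin-21 receptor, fell by 0.99. These 4 kept their calls in all 15 alternatives. The groups did not overlap for any of the 4, but these were named for being the called genes of the list with the largest changes. Of all genes tested, 79.0% did not overlap either.

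**Figure D5:**
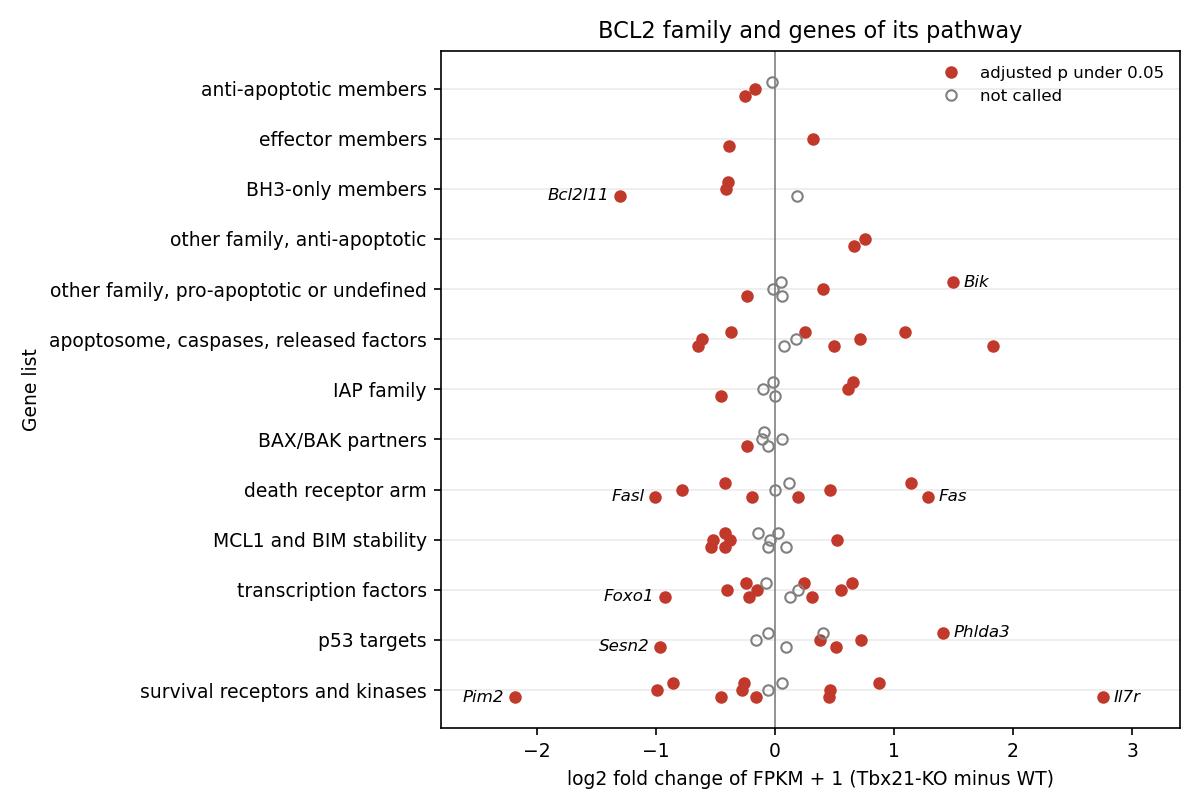
Log2 fold change (Tbx21-KO minus WT, on FPKM + 1) of each tested gene in the 3 classes of members and in 10 lists of related genes, without Tbx21; filled points had a limma adjusted p under 0.05 with the deposited values, and points are set at slightly different heights only to keep them apart. Bcl2l11 lies at -1.30 among the BH3-only genes, and the list of survival receptors and kinases spans -2.18 for Pim2 to 2.76 for Il7r.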

How the data were processed

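RNA sequencing of 4 libraries was analysed, 2 of each genotype. The table that the authors deposited gives FPKM per gene and library. Per the submitters' processing notes the build was GRCm38 (mm10). The aligner, the counting tool and any use of strand were not stated in what was read. Of 24769 rows, the last is cut short and was dropped, and 24720 of the other 24768 IDs matched a symbol of GENCODE M21 (GRCm38). Of 166 listed genes 155 had a row, and the other 11 are not analysed here. With GENCODE exon lengths, 96.8% to 97.3% of the values under 20 reads came out whole within 0.1 read, which gave the implied library totals.

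The 11013 genes whose FPKM averaged 1 or more were tested as log2(FPKM + 1) with limma 3.58.1 (intensity trend) in R 4.3.3, with Benjamini-Hochberg adjustment over all of them. Fold changes on this scale understate the change of low genes. No label says that libraries of a group are separate animals or cultures, so each p-value rests on the spread between the 4 libraries alone, and that spread may be technical. The steps were tested on simulated data. The members, the lists, the T cell receptor scaling (17 genes) and the alternatives were chosen with earlier results of these data known. Named genes are all measured members of the family lists, up to 4 called genes with the largest change per other list, and a few key genes where not called. Some genes that this rule names are not reported here. Class counts, medians and ratios are descriptions. Promoters are RefSeq sequences (GRCm38.p6).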

Additional observations from a re-analysis of the deposited data

How the results depend on the processing

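Every result was recomputed under 15 alternatives, and ratios under 5. Bcl2l11 stayed lower and Bax higher in all of them. Scaled to the T cell list, 7994 genes were called higher and 523 lower. With the filter raised to a mean of 5 FPKM, 2018 were higher and 2171 lower, so that 48.2% of the calls were higher, against 56.7%. The T cell receptor scaling called 3 anti-apoptotic members higher and 0 lower, 0 effectors lower, and 1 BH3-only member higher and 1 lower. Of the 84 tested pathway genes it called 64 higher and 8 lower, against 72.6% and 4.75% of all genes tested. It turned the log2 fold changes of Bcl2 to 0.28, Bcl2l1 to 0.41, Mcl1 to 0.20, Bak1 to 0.067, Bid to 0.024, Bbc3 to 0.014, Bnip3l to 0.44, Bnip2 to 0.21, Vdac3 to 0.21, Gsk3b to 0.0050, Atf4 to 0.055 and Trp53 to 0.37. Its construction raises Tbx21-KO values relative to WT. With no filter 1 anti-apoptotic member was lower, and leaving out 1 library at a time gave 0 to 2, where the lone sample of an arm is assumed to vary like the other group. With a pseudocount of 5, and with the filter at 5 FPKM, 1 BH3-only member, Bad, was higher. Without a library, 2391 to 3036 genes were called higher and 1726 to 2225 lower. Libraries of the 2 groups share only a replicate number: the deviations of the libraries numbered 1 correlated at -0.02 across genes. With the replicate block 3245 genes were called higher and 2482 lower, no member changed its call, and of the pathway genes Bnip2 and Aifm1 lost theirs while Perp gained one. With 2 libraries per group, small changes such as those of Bcl2, Mcl1 and Bad sit close to the threshold.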
